A study of Mus musculus with 6 samples.

Results

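The genes described here are 10 genes of natural killer (NK) cells and of cell killing: the surface receptors Klrb1c, Klrd1, Ncr1 and Il2rb, the granule genes Nkg7, Gzma, Gzmb and Prf1, the transcription factor Eomes and the chemokine Ccl5. They were taken by symbol from a table of FPKM (fragment counts scaled to transcript length and to library size) with 27761 gene rows, and each of the 10 had 1 row. The libraries came from mouse bone marrow cells that carry B220, the form of CD45 found on B-lineage cells, and fell into 3 libraries of genotype WT and 3 of genotype PELI2 knockout, titled PELI2-CKO and called knockout-labelled from here on. The labels used here give no age, strain, Cre driver or treatment, or say whether each replicate was its own animal, so p-values measure only the spread between these samples, which may be technical. The depth worked out from the low FPKM values was 16600000 to 18000000 reads per library.

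NK cells are innate lymphocytes that mature in the marrow and kill infected or transformed cells by releasing perforin and granzymes from granules. Interleukin-15, received through the chain that Il2rb encodes, keeps them alive, and the T-box factors Eomes and T-bet set their programme. Cytotoxic T cells share the granule genes, Il2rb, Eomes and Ccl5, while Ncr1 and Klrb1c mark NK cells and related innate cells more closely. Some mouse NK cells and their precursors carry B220 themselves. In RNA of a whole cell fraction, fewer cells of a type and less RNA per cell cannot be told apart.

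Promoter windows were searched for short letter patterns as a description, and whether these letters bear on any FPKM value was not tested. RefSeq windows on GRCm38.p6, from 250 bases before to 50 bases after the annotated start, were found for 7 genes: Klrb1c, Ncr1, Nkg7, Eomes, Prf1, Gzma and Gzmb. The windows of 4 of them are printed 5′ to 3′ on the gene's own strand. Capitals mark TGTGGT or its reverse complement ACCACA, a core bound by RUNX factors, and GGTGTG or its reverse complement CACACC, a T-box core. Nkg7 lies at chr7:43436888-43437187 on the plus strand, Ncr1 at chr7:4337465-4337764 on the plus strand, Gzma at chr13:113100932-113101231 on the minus strand and Gzmb at chr14:56262285-56262584 on the minus strand.
Nkg7: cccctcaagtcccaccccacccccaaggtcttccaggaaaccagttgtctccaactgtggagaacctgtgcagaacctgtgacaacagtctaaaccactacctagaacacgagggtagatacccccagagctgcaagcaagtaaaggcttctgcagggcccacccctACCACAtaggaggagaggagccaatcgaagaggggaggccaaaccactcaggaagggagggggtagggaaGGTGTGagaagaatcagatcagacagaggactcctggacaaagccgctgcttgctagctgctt
Ncr1: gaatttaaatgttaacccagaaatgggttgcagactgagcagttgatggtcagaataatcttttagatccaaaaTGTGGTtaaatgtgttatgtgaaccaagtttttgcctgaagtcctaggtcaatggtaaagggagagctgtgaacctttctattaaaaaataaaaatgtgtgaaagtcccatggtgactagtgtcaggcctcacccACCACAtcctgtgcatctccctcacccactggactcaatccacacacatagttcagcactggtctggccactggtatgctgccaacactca
Gzma: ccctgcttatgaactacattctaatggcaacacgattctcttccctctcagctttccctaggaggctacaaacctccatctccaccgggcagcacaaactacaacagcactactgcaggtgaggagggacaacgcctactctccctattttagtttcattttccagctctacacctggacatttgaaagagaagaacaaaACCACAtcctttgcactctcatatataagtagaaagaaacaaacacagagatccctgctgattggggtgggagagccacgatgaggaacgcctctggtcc
Gzmb: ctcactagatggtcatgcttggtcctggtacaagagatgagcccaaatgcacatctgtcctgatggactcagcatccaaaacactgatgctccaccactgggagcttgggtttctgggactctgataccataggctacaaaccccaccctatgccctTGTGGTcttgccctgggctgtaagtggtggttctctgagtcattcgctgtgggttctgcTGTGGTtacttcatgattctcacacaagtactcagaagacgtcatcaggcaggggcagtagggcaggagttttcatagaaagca

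The RUNX letters occurred on either strand in the windows of 6 of the 7 genes, Eomes being the exception, and in 16.8% of all 32851 windows of that length. The first base of the match lay 83 bases before the start in Nkg7, 50 bases before it in Gzma, 130 bases before it in Prf1 and 89 bases before it in Klrb1c. Gzmb held 2 copies, 93 and 34 bases before the start, and the Ncr1 window printed above held 2, 176 and 41 bases before it. The T-box letters were found in Nkg7 only, 13 bases before its start, and in 19.0% of all windows. A STAT pattern, TTCNNNGAA, was present in Gzmb and Nkg7 and in 8.3% of all windows, and an ETS pattern, CAGGAAGT, in Prf1 and in 3.3% of all windows. The 4 patterns were searched on both strands, no printed copies overlap, and a match describes the letters only.

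All 10 genes were measured in every library, the lowest value being 2.32 FPKM, so each passed the expression filter of 1 FPKM in at least 3 libraries. Nkg7 had the highest mean over the 6 libraries at 38.0 FPKM, which is above 88.8% of the 12953 genes tested. Ccl5 followed at 28.2 FPKM, Gzma at 22.4 FPKM, Il2rb at 16.3 FPKM and Klrd1 at 13.5 FPKM. The other 5 lay between 2.68 and 5.32 FPKM, in the order Ncr1, Klrb1c, Gzmb, Prf1 and Eomes. The ranges over the 6 libraries overlapped for each pair of neighbours in this order but 1: the highest Ncr1 value, 6.29 FPKM, was under the lowest Klrd1 value, 11.0 FPKM. Ptprc, which encodes CD45, was between 40.1 and 45.1 FPKM in every library, a value for all forms of CD45 and not B220 alone.

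**Figure D1:**
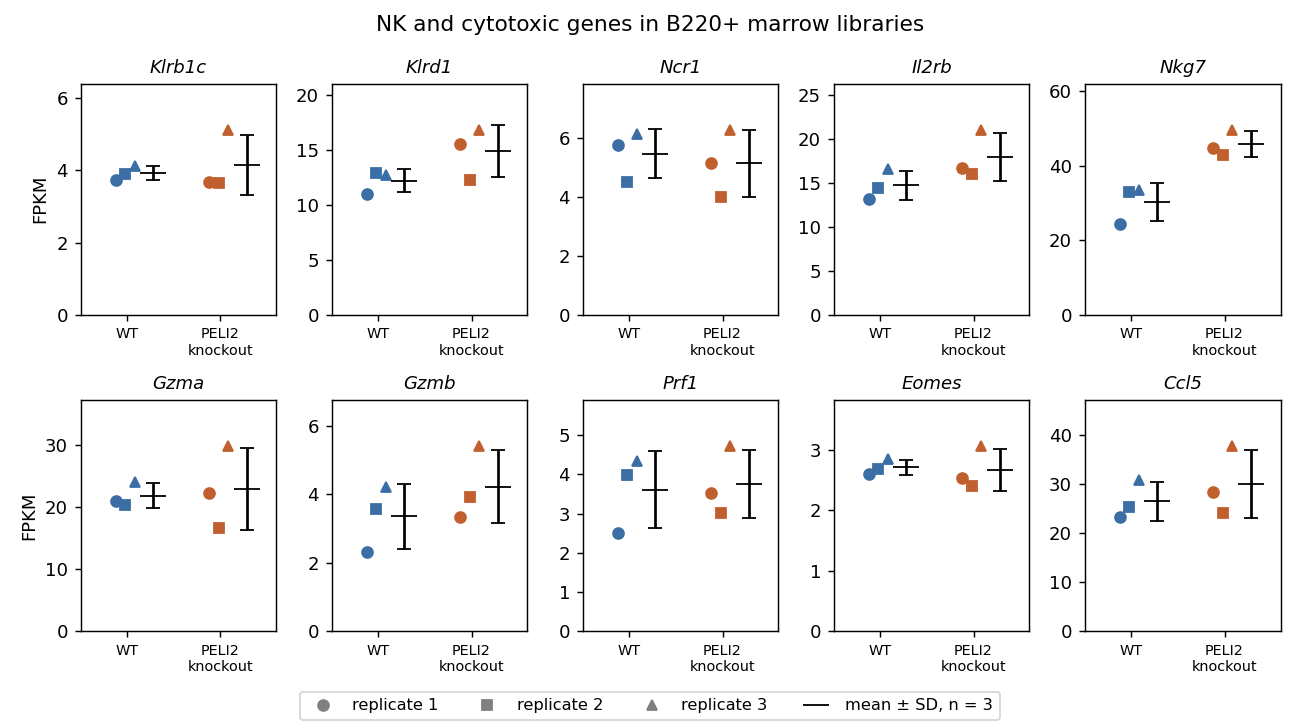
FPKM of the 10 genes in each library, 1 panel per gene with its own linear axis from 0; circles, squares and triangles are replicates 1, 2 and 3, and bars are the mean ± SD over n = 3 libraries. Nkg7 is the only panel in which the groups do not overlap, and the knockout replicate 3 triangle is the highest point in all 10 panels.

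The comparison of the groups asks whether NK and cytotoxic RNA in the B220+ fraction differs with the knockout label. None of the 10 genes passed the threshold over all genes (limma on log2(FPKM + 1), Benjamini-Hochberg adjusted p under 0.05), where 0.0232% of the genes tested did. Nkg7 was the only gene whose groups did not overlap, 1 of 10 beside 25.8% of all genes tested, and the only one at an unadjusted p under 0.05, 1 of 10 beside 18.1% of all genes tested. The means of 8 genes were higher and those of 2 lower in the knockout-labelled libraries, beside 6013 of 12953 higher over all genes tested. The median log2 fold change of the 10 was 0.11 against -0.01 over all genes tested. Without PELI2_knockout replicate 3 this median was -0.04. Peli2 itself, at 2.19 ± 0.31 FPKM in WT against 2.74 ± 0.30 FPKM in the knockout-labelled libraries (SD, n = 3), did not separate the groups, so each direction is that of the label.

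Among the surface receptors, Klrd1 and Il2rb had higher means in the knockout-labelled libraries without passing, and Klrb1c and Ncr1 stood close to WT. Klrd1, which encodes CD94, the partner of the NKG2 receptors (ENSMUSG00000030165, GRCm38 chromosome 6, 129591782 to 129598775), was at 11.0, 12.9 and 12.7 FPKM in WT replicates 1 to 3 and at 15.5, 12.2 and 16.8 FPKM in PELI2_knockout replicates 1 to 3. Knockout replicates 1 and 3 lay above all WT libraries and replicate 2 lay among them. The log2 fold change was 0.26 with a standard error of 0.12 (limma adjusted p = 0.315), and 0.17 without PELI2_knockout replicate 3.

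Il2rb, the chain shared by the interleukin-2 and interleukin-15 receptors (ENSMUSG00000068227, chromosome 15, 78479256 to 78495271), was at 13.2, 14.4 and 16.5 FPKM in WT and at 16.7, 16.0 and 21.0 FPKM in the knockout-labelled libraries. Only the WT library at 16.5 FPKM and the knockout library at 16.0 FPKM crossed, and knockout replicate 3 stood above the rest. Its log2 fold change was 0.26 with a standard error of 0.12 (limma adjusted p = 0.307), and 0.15 without PELI2_knockout replicate 3.

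Klrb1c, the NK1.1 antigen of C57BL/6 mice (ENSMUSG00000030325, chromosome 6, 128778485 to 128789215), was at 3.74, 3.90 and 4.13 FPKM in WT and at 3.69, 3.66 and 5.12 FPKM in the knockout-labelled libraries. Knockout replicates 1 and 2 lay just under all WT libraries and replicate 3 above them. The log2 fold change was 0.06 with a 95% interval from -0.22 to 0.34 (limma), and it was -0.07 without PELI2_knockout replicate 3 and -0.0029 when libraries were rescaled to a common total. Klrb1c overlaps Gm44511 on the same strand and has close relatives beside it, so reads of 50 bases may be shared and its value is uncertain.

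Ncr1, which encodes the activating receptor NKp46 (ENSMUSG00000062524, chromosome 7, 4337724 to 4345164), was at 5.79, 4.53 and 6.14 FPKM in WT and at 5.16, 3.999 and 6.29 FPKM in the knockout-labelled libraries. The groups interleave, with replicate 2 the lowest library of each. The log2 fold change was -0.09 with a 95% interval from -0.46 to 0.29 (limma), and 0.06 without PELI2_knockout replicate 2.

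Of the granule genes, the RNA of Nkg7 stood apart between the groups and that of Gzma, Gzmb and Prf1, which encode the killing proteins, did not. Nkg7, a membrane protein of cytotoxic granules that takes part in their release (ENSMUSG00000004612, chromosome 7, 43437073 to 43438249), was at 24.4, 33.0 and 33.4 FPKM in WT and at 44.6, 42.9 and 49.5 FPKM in the knockout-labelled libraries. The lowest knockout library exceeded the highest WT library, and WT replicate 1 was the lowest of the 6. The means were 30.2 ± 5.07 and 45.7 ± 3.47 FPKM (SD, n = 3), a ratio of 1.51. Nkg7 had a log2 fold change of 0.59 with a standard error of 0.13 and a 95% interval from 0.29 to 0.89 (limma, unadjusted p = 0.0027, adjusted p = 0.142). In the two-sided exact permutation test of the means p = 0.1, the smallest that 3 against 3 libraries allow, and 1 after adjustment over the 10 genes. Without WT replicate 1 the log2 fold change was 0.45.

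Gzma, the granzyme with trypsin-like specificity (ENSMUSG00000023132, chromosome 13, 113093825 to 113100981), was at 21.1, 20.3 and 24.1 FPKM in WT and at 22.3, 16.7 and 29.8 FPKM in the knockout-labelled libraries. Both the lowest and the highest of the 6 libraries were knockout libraries. The log2 fold change was 0.03 with a 95% interval from -0.43 to 0.49 (limma). It was -0.02 without WT replicate 2, -0.17 without PELI2_knockout replicate 3 and -0.04 when rescaled to a common total.

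Gzmb, the granzyme that cleaves after aspartate and sets off caspases (ENSMUSG00000015437, chromosome 14, 56258838 to 56262260), was at 2.32, 3.56 and 4.20 FPKM in WT and at 3.34, 3.92 and 5.40 FPKM in the knockout-labelled libraries. The gene has 1 annotated transcript, so its FPKM convert to reads. These were 59, 85 and 104 in WT and 87, 96 and 140 in the knockout-labelled libraries. The exact Poisson 95% interval was 44.9 to 76.1 in WT replicate 1, the lowest, and 118 to 165 in PELI2_knockout replicate 3, the highest. The intervals of WT replicates 2 and 3 and of PELI2_knockout replicates 1 and 2 overlapped one another. All cover counting error only. The groups overlapped, and the log2 fold change was 0.27 with a 95% interval from -0.22 to 0.75 (limma adjusted p = 0.519). It was 0.081 without WT replicate 1, 0.11 without PELI2_knockout replicate 3 and 0.41 without WT replicate 3. Gzmb lies 7.98 Mb beyond the end of Peli2 on the same chromosome.

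Prf1, the pore-forming protein perforin (ENSMUSG00000037202, chromosome 10, 61297833 to 61304680), was at 2.51, 3.98 and 4.35 FPKM in WT and at 3.52, 3.02 and 4.71 FPKM in the knockout-labelled libraries. Each group spanned most of the other's range. The log2 fold change was 0.05 with a 95% interval from -0.41 to 0.51 (limma). Its value was -0.14 without WT replicate 1, -0.09 without PELI2_knockout replicate 3 and -0.0071 when rescaled to a common total.

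Eomes and Ccl5 did not separate the groups either. Eomes (ENSMUSG00000032446, chromosome 9, 118478212 to 118486132), which varied least of the 10, was at 2.59, 2.68 and 2.85 FPKM in WT and at 2.54, 2.40 and 3.05 FPKM in the knockout-labelled libraries. Its log2 fold change was -0.02 with a 95% interval from -0.23 to 0.19 (limma), and between 0.0024 and 0.03 without WT replicate 3, PELI2_knockout replicate 1 or PELI2_knockout replicate 2. An antisense gene, Gm33460, overlaps the end of Eomes, and strand use is not given in the sources used here.

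Ccl5, the chemokine RANTES that NK and T cells store and secrete (ENSMUSG00000035042, chromosome 11, 83525778 to 83530518), was at 23.2, 25.3 and 30.8 FPKM in WT and at 28.3, 24.0 and 37.6 FPKM in the knockout-labelled libraries. Knockout replicate 3 was above all WT libraries and knockout replicate 2 under 2 of them. The log2 fold change was 0.16 with a 95% interval from -0.25 to 0.57 (limma), and -0.01 without PELI2_knockout replicate 3.

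**Figure D2:**
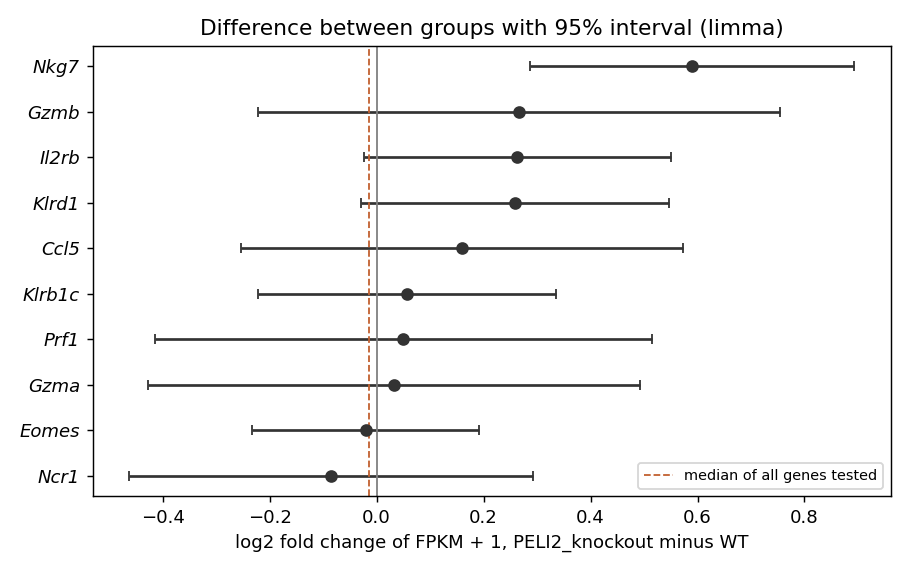
Log2 fold change of FPKM + 1 (PELI2_knockout minus WT) for each of the 10 genes, with bars for the 95% interval from limma; the dashed line is the median of all genes tested. The interval of Nkg7, from 0.29 to 0.89, lies above 0, and those of the other 9 genes include 0.

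The intervals give the precision that these 6 libraries allow. The upper ends of the intervals for Eomes, Ncr1 and Klrb1c were log2 fold changes of 0.19, 0.29 and 0.34. Those for Gzma, Prf1 and Gzmb reached 0.49, 0.51 and 0.75, and of the other 9 genes only Gzmb had an interval that includes the 0.59 of Nkg7; whether Nkg7 differs from these genes was not tested.

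Within each group the 10 genes were also ranked by library. PELI2_knockout replicate 3 was the highest of the 6 libraries for 10 of 10 genes, where it was the highest for 17.2% of all genes tested. WT replicate 1 was the lowest for 6 of the 10, beside 25.9% of all genes tested, and PELI2_knockout replicate 2 for the other 4, beside 14.9%. Within the WT group, replicate 3 was the highest library for 9 of 10 genes, and the share over all genes tested was not taken for this count. The summed FPKM of the 10 genes were 110, 125 and 139 in WT and 146, 129 and 179 in the knockout-labelled libraries, and the groups overlapped. Without Nkg7 the sums were 85.4, 91.6 and 106 in WT and 101, 85.9 and 130 in the knockout libraries, and they overlapped as well.

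**Figure D3:**
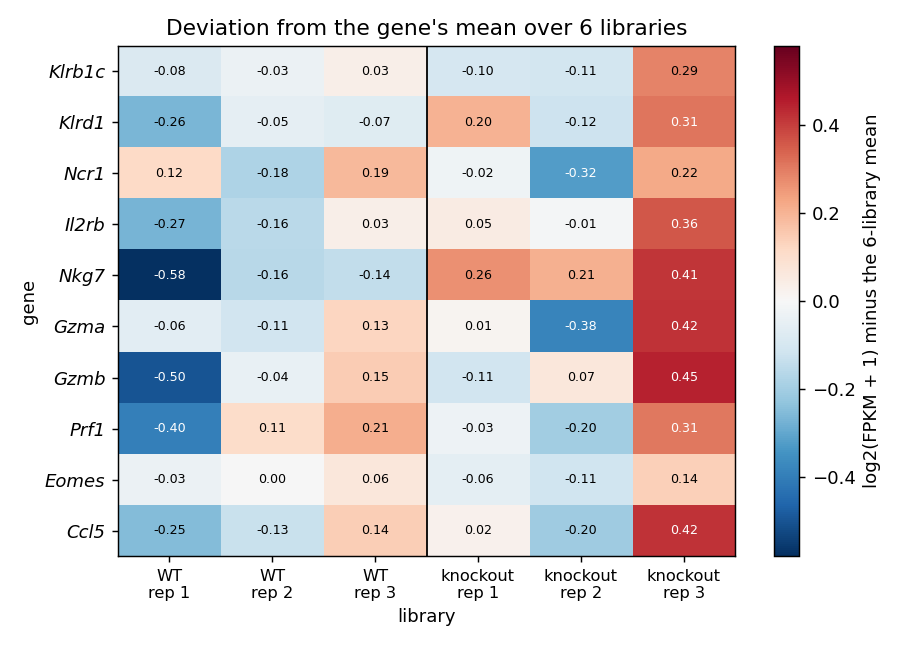
Log2(FPKM + 1) of each gene (rows) in each library (columns) minus that gene's mean over the 6 libraries, in red above and blue below the mean, with the WT libraries left of the line. PELI2_knockout replicate 3 is above the mean for all 10 genes, and Nkg7 is above it in all 3 knockout libraries and below it in all 3 WT libraries.

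Nkg7 was also set against the other 9 genes library by library. Its log2(FPKM + 1) exceeded the mean of the other 9 by 1.68, 1.97 and 1.83 in WT replicates 1 to 3 and by 2.33, 2.43 and 2.16 in PELI2_knockout replicates 1 to 3. The 2 sets of values do not overlap, which is given as a description because Nkg7 was singled out after its values were seen. Relative to Ncr1 alone, the ratio of FPKM was 4.21, 7.28 and 5.44 in WT and 8.64, 10.7 and 7.88 in the knockout libraries. Ncr1 had the lowest log2 fold change of the 10, at -0.09, which favours a separation of these ratios. Ratios to the other genes were not taken. Over the 45 pairs of genes, Pearson's r of log2(FPKM + 1) over the 6 libraries ran from -0.12 for Nkg7 with Ncr1 to 0.93 for Gzma with Eomes, and the libraries and their depth are shared by all pairs. The 5 other genes whose pattern was most like the mean of the 10 were Orc2, Hpgds, Rpl36a, Rps15 and Rpl4, with Pearson's r of 0.99 over the 6 libraries. With so few libraries and all other tested genes searched, these serve as a description.

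Other receptors of NK cells had mostly higher means in the knockout-labelled libraries, with 18 of the 21 tested on that side. Their median log2 fold change was 0.22. The share of higher means over all genes tested, 6013 of 12953, applies to this count and to those of the lists below. Of the 21, 0 passed over all genes (limma), while 3 were higher and 1 lower by unadjusted p under 0.05, where 9.2% of all genes tested were higher and 8.88% lower. Cd7, an immunoglobulin-superfamily protein of T and NK cells, averaged 40.1 ± 4.29 FPKM in WT against 56.6 ± 4.20 FPKM in the knockout-labelled libraries (SD, n = 3), with groups that did not overlap (limma adjusted p = 0.140). Slamf7, a receptor of NK cells that B-lineage cells also carry, stood at 36.2 ± 4.16 and 27.7 ± 1.78 FPKM, lower in 3 of 3 knockout libraries (limma adjusted p = 0.161). Cd160 and Ncam1 were low, at 1.36 ± 0.14 and 0.80 ± 0.10 FPKM in WT and at 1.85 ± 0.19 and 1.201 ± 0.10 FPKM in the knockout libraries. The remaining 7 receptors with a row did not exceed 1.26 FPKM in any library and were not tested.

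Other genes of cytotoxic granules and killing had higher means for 12 of 13 tested, with a median of 0.19. None passed over all genes (limma), and 5 were higher and 1 lower by unadjusted p under 0.05, beside 9.2% and 8.88% of all genes tested. Cst7, the cathepsin inhibitor cystatin F, averaged 9.33 ± 2.37 FPKM in WT against 16.2 ± 1.28 FPKM in the knockout-labelled libraries, a log2 fold change of 0.76 with a standard error of 0.17 (limma adjusted p = 0.147). Ctsc, the cathepsin that activates granzymes and also the serine proteases of neutrophils, stood at 15.9 ± 1.55 and 19.8 ± 0.21 FPKM. Unc13d and Rab27a, which dock and prime granules for release, stood at 22.2 ± 0.77 and 15.7 ± 2.15 FPKM in WT and at 25.5 ± 1.06 and 19.9 ± 0.55 FPKM in the knockout libraries. These 4 genes are also used by granule-bearing myeloid cells. Gzmc, Gzmk and Gzmm did not exceed 1.14 FPKM in any library.

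Chemokines, effector cytokines and homing receptors of NK cells had a median of 0.36, with 6 of 8 means higher. Of the 8, 0 passed over all genes (limma), and 5 were higher and 0 lower by unadjusted p under 0.05, beside 9.2% and 8.88% of all genes tested. Xcl1, the lymphotactin that draws dendritic cells, averaged 12.2 ± 1.48 FPKM in WT against 16.2 ± 1.90 FPKM in the knockout-labelled libraries (limma adjusted p = 0.187). Ccl4, a chemokine that myeloid and B cells make as well, stood at 45.5 ± 9.97 and 60.6 ± 4.57 FPKM, Cxcr3 at 6.20 ± 1.02 and 8.42 ± 1.22 FPKM, and Cx3cr1 at 1.80 ± 0.42 and 2.52 ± 0.21 FPKM.

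The adaptors that carry signals from NK receptors had a median of 0.15, with 6 of 9 means higher. None of the 9 passed over all genes (limma), and 2 were higher and 1 lower by unadjusted p under 0.05, beside 9.2% and 8.88% of all genes tested. Several of them also serve myeloid and B cells. Fcer1g, the signalling chain of Fc receptors and of NKp46, averaged 85.3 ± 13.6 FPKM in WT against 115 ± 10.9 FPKM in the knockout-labelled libraries, and Tyrobp, the adaptor DAP12, at 255 ± 23.0 and 310.2 ± 38.5 FPKM. Syk, the kinase downstream of both and of the B cell receptor, stood at 163 ± 20.0 and 136 ± 5.77 FPKM.

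Transcription factors of NK cells had a median of -0.13, with 3 of 8 means higher, and genes of cytokine signalling had a median of -0.02, with 6 of 13 means higher. The second list holds receptor chains for interleukin-2, interleukin-12, interleukin-15, interleukin-18 and interleukin-21, the ligand gene Il15, and the kinases and STAT factors downstream. None of either list passed over all genes (limma). At an unadjusted p under 0.05, 1 factor was higher and 4 lower, and 0 cytokine genes were higher and 1 lower, beside 9.2% and 8.88% of all genes tested. Nfil3, a factor needed early in NK development, averaged 9.76 ± 1.18 FPKM in WT against 12.7 ± 0.76 FPKM in the knockout-labelled libraries. Ikzf3, the lymphoid factor Aiolos, stood at 53.9 ± 5.88 and 41.4 ± 2.02 FPKM, and Il2ra, the high-affinity chain of the interleukin-2 receptor, at 12.5 ± 3.16 and 8.41 ± 0.79 FPKM. Both are also expressed in the B lineage.

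**Figure D4:**
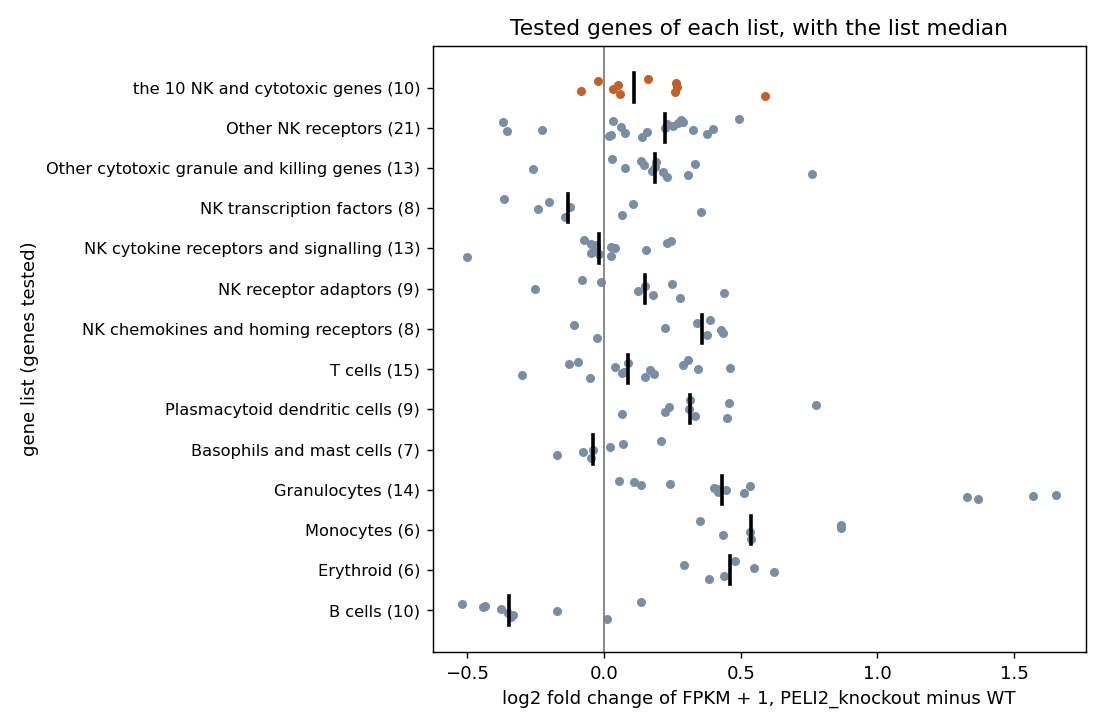
Log2 fold change of FPKM + 1 (PELI2_knockout minus WT) of every tested gene in each list (1 point per gene, number tested in brackets), with a black bar at the list median. The 10 NK and cytotoxic genes have a median of 0.11, T cell genes 0.09, and granulocyte, monocyte and erythroid genes 0.43, 0.54 and 0.46.

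Summed levels of markers of other cell types did not overlap between the groups for granulocyte, monocyte, plasmacytoid dendritic cell and B cell genes, and overlapped for erythroid, T cell, and basophil and mast cell genes. The sums were 7816 to 10824 FPKM in WT and 12256 to 14467 FPKM in the knockout-labelled libraries for 14 granulocyte genes, and 665 to 933 against 991 to 1226 FPKM for 6 monocyte genes. They were 7735 to 11669 against 11396 to 14424 FPKM for 6 erythroid genes, where the highest WT library exceeded the lowest knockout library, and 584 to 633 against 714 to 859 FPKM for 9 plasmacytoid dendritic cell genes. The means were higher in the knockout libraries for each tested gene of these 4 lists. The 10 B cell genes summed to 1799 to 2123 FPKM in WT and 1456 to 1561 FPKM in the knockout libraries, with 8 of 10 means lower. The sums of the 16 T cell genes with a row overlapped, at 147 to 159 and 143 to 158 FPKM. Cd2 had the highest mean of these genes. It averaged 65.4 FPKM in WT against 52.8 FPKM in the knockout-labelled libraries, with groups that did not overlap. By contrast, 11 of the 15 tested T cell means were higher in the knockout-labelled libraries. The T cell sum therefore does not show the direction of most of its genes. The sums of the 8 basophil and mast cell genes overlapped as well, at 58.1 to 130 and 69.7 to 117 FPKM. No marker list had a gene with a mean of 0. Cd3e, a chain of the T cell receptor complex, had the lowest mean of the T cell genes with a row. It was between 0.46 and 0.89 FPKM in the 6 libraries. Trbc1 and Lck of the same list were between 8.61 and 14.3 FPKM and between 12.7 and 16.4 FPKM. The part of these cells in the Nkg7 difference was not tested.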

How the data were processed

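RNA of B220+ bone marrow cells was sequenced as single-end reads of 50 bases after oligo(dT) selection and random hexamer priming, per the labels' protocols. The values are FPKM per gene and library as deposited by the authors. The build GRCm38.p6, RSEM 1.2.12, DESeq2 1.4.5, HISAT2 2.0.4 and Bowtie2 2.2.5 are named without roles, per the submitters' processing notes. Count models were not applied to FPKM. Library totals were those at which FPKM times length gave whole reads (within 0.03, for values under 6 reads) for genes with 1 transcript in GENCODE M21. Between 99.3% and 99.5% of such values came out whole.

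The 12953 genes with at least 1 FPKM in 3 or more libraries were fitted on log2(FPKM + 1), a scale that understates changes of low genes, with limma 3.58.1 in R 4.3.3 (lmFit, eBayes with a trend, two-sided), without a replicate block. Benjamini-Hochberg adjustment ran over all of them, and the script was tested on simulated data. Exact permutation tests compared single genes. The members and lists were chosen with earlier results of these data known. Named were the 10 genes, Peli2, up to 4 genes with the smallest p or the highest FPKM per list, the 5 most similar genes, and family neighbours. Cd3e and Ptprc were named after their values were seen. Gzmd, Gzme, Gzmf, Gzmg, Gzmn and Bcl11b were not analysed here. Alternatives were other pseudocounts (0.1, 0.5), filters (none, 5 FPKM), median-of-ratios, common-total and quantile scaling, no variance trend, a replicate block, and each library left out. Figures used matplotlib 3.10.9.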

Additional observations from a re-analysis of the deposited data

How the results depend on the processing

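Under the 15 alternatives 0 of the 10 genes passed the threshold over all genes (limma), and the log2 fold change of Nkg7 stayed between 0.45 and 0.67, with adjusted p from 0.120 to 0.366. Nkg7, Klrd1, Il2rb and Gzmb kept a positive sign in each alternative in which they were tested, but leaving out 1 library gave 0.17 to 0.38 for Klrd1, 0.15 to 0.35 for Il2rb and 0.081 to 0.41 for Gzmb. With a filter of 5 FPKM, 6 of the 10 genes were tested. The number of genes called over the whole table was 3, and it was 1 with a filter of 5 FPKM, 6 without a variance trend and 2 to 16 with 1 library left out, the 16 without PELI2_knockout replicate 3. Leaving out 1 library gave 1 to 3 of the 10 genes whose groups do not overlap, beside 31.8% to 40.2% of all genes tested. It gave 1 to 3 of the 10 at an unadjusted p under 0.05 (limma), beside 12.6% to 19.5% of all genes tested. With 1 library left out, the medians of the 10 log2 fold changes ran from -0.042 to 0.27. The genes besides Nkg7 whose groups then did not overlap were Il2rb without WT replicate 3, Klrd1 and Il2rb without PELI2_knockout replicate 2, and Klrb1c and Eomes, both lower, without PELI2_knockout replicate 3, where 40.2%, 35.5% and 34.4% of all genes tested did not overlap. Rescaled to a common total, which shifts the median of all genes to -0.08, the values were -0.0029 for Klrb1c, -0.038 for Gzma and -0.0071 for Prf1. Leaving out 1 library gave ranges of -0.073 to 0.12 for Klrb1c, -0.17 to 0.23 for Gzma, -0.14 to 0.17 for Prf1, -0.10 to 0.031 for Eomes, -0.22 to 0.056 for Ncr1 and -0.011 to 0.30 for Ccl5, so the signs of these 6 rest on single libraries. The replicate numbers are shared by the groups, but same-numbered libraries correlated by only 0.10, 0.04 and 0.09 in their deviations over 12953 genes, although each correlated best with its own number. With the replicate number as a block, 4 genes were called over the whole table and 3 of the 10 genes, Nkg7, Gzmb and Il2rb, had an unadjusted p under 0.05, beside 19.3% of all genes tested.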

Other observations

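The receptor genes around Klrb1c and Klrd1 form the NK gene complex on chromosome 6. Besides these 2, 25 rows named Klr were found there between Klrb1a and Klra1, of which 17 were tested. Many of these rows are among the other NK receptors counted above, and Klra13-ps and Klra14-ps are pseudogenes. Means were higher in the knockout-labelled libraries for 15 of the 17, with a median log2 fold change of 0.16. Over all genes tested, 6013 of 12953 means were higher. For 0 of the 17 did the groups fall apart, beside 25.8% of all genes tested. None passed over all genes and 0 had an unadjusted p under 0.05 (limma). PELI2_knockout replicate 3 was the highest of the 6 libraries for 12 of the 17, where it was the highest for 17.2% of all genes tested. The highest level belonged to Klra17, at 10.7, 12.4 and 11.97 FPKM in WT and at 13.7, 12.3 and 14.4 FPKM in the knockout libraries. Klra genes are near-identical copies, and their single values are uncertain with reads of 50 bases.

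Gzmb sits at the end of a cluster of granule proteases on chromosome 14. Ctsg, a protease of neutrophil primary granules that starts at 56099881, stood at 24.6, 39.4 and 36.7 FPKM in WT and at 110.4, 128 and 83.4 FPKM in the knockout-labelled libraries, with groups apart. Mcpt8, a basophil protease that starts at 56082166, stood at 9.90, 30.3 and 15.6 FPKM in WT and at 14.2, 14.2 and 21.2 FPKM in the knockout libraries, with overlapping groups. Gzmc, the nearest granzyme with a row, did not exceed 0.27 FPKM.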
